A study of Mus musculus with 9 samples.

Results

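A group of 30 genes of T-cell receptor (TCR) signalling and of the T-cell surface was examined for binding of CTCF and of Rad21, a subunit of cohesin, in mouse lymphocyte progenitors. The 30 genes, of 22359 protein-coding genes in the annotation, were a named list: the receptor chain gene Cd247, the kinase genes Lck, Zap70, Fyn and Txk, the adaptor and scaffold genes Lat, Lcp2, Grap2, Trat1, Sit1, Themis and Sla, the surface molecule genes Cd2, Cd5, Cd6, Cd28, Ctla4, Icos, Cd27, Cd69 and Thy1, the phosphatase-family genes Ptprc, Ptpn6, Ptpn22 and Ubash3a, and the downstream genes Prkcq, Rasgrp1, Vav1, Nfatc1 and Nfatc3. The rule names the genes and uses no peak values, but the list was chosen with earlier results of these data known. For each gene, the peaks that overlapped the gene body or the 50 kb on either side of it were taken, and all 30 genes were found in the annotation and had at least 1 peak.

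When a T cell receptor binds its ligand, Lck phosphorylates the signalling chains of the receptor, among them the zeta chain encoded by Cd247, and ZAP-70 docks there and phosphorylates the adaptors LAT and SLP-76. The complex that forms on these adaptors passes the signal on to calcium and NFAT, to protein kinase C and to Ras. Thymocytes first signal through a pre-TCR, which carries a rearranged TCR beta chain, as they pass from the CD4-CD8- (DN) to the CD4+CD8+ (DP) stage. CTCF binds DNA through a known sequence motif, and cohesin, a ring-shaped complex, is found at many CTCF sites and also at active promoters and enhancers.

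The data were ChIP-seq peaks from C57BL/6 mice that all lacked RAG1 or RAG, so that their lymphocytes make no antigen receptor rearrangements of their own. CTCF was profiled in pro-B cells of RAG1-/- bone marrow cultured for 7 days with IL7, and CTCF and Rad21 were profiled in pre-B cells of RAG-/-µ+ mice, which carry a rearranged IgM transgene, with mice of both sexes aged 6 to 14 weeks as the source of marrow. Rad21 was also profiled in DN thymocytes of Rag1-/- mice and in DP thymocytes of Rag1-/- mice with a rearranged TCRb transgene, both at 4 to 8 weeks. Each antibody and cell type had 1 library, so there was no spread between replicates and no test between cell types was possible. Between pre-B cells and thymocytes, cell type, tissue, age and transgene cannot be told apart, and between DN and DP thymocytes, cell type and the TCRb transgene cannot. CTCF in thymocytes was not analysed here.

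For CTCF the pre-B list was 42250 peaks long and that of the cultured pro-B cells 71080, and for Rad21 the pre-B, DN and DP lists were 30488, 9701 and 36743 peaks long. Each peak carries a score that the authors' peak caller derived from its p-value, and the lowest score kept ranged from 50 to 86.45 between lists. How many reads lie behind a list is unknown. Scores were therefore used only within a list, as a rank (1 is the highest score) or as a percentile (the percent of peaks in the same list with a lower score), and the Rad21 comparison was repeated on the top 9701 peaks of each list, called lists of equal length here. A site without a peak is a site not called in that list. The 95% intervals given with shares are exact Clopper-Pearson intervals and cover counting error only, without any spread between animals.

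Sequences at these loci are given first for the sites the results turn on (mouse build NCBIM37, which is mm9). The first set shows 30 bases at CTCF peaks of pre-B cells, with the match to the Homer_DeNovo CTCF consensus in capitals, written 5′ to 3′ on the strand of the match. The first 3 sites were called for Rad21 in all 3 cell types, the Cd247 site in pre-B and DP cells, and the Ubash3a site in pre-B cells alone.
upstream of Lck (chr4:129286074-129286103, plus strand): gtctctgctGCCCTCTGGTGGatgtgtgga
downstream of Cd5 (chr19:10789350-10789379, minus strand): ggcactggtGCCCCCTGGTGGaactgagta
upstream of Nfatc3 (chr8:108546595-108546624, plus strand): ggttacagtGCCCCCTGGTGGagtcagagt
intron of Cd247 (chr1:167784035-167784064, minus strand): gcaagtggcGCCCTCTGGTGGgcgctggcc
intron of Ubash3a (chr17:31373039-31373068, minus strand): agggcctctGCCCCCTGGTGGcaggcaggg

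The second set shows 200 bases just upstream of the transcription start nearest the best DP Rad21 promoter peak, on the strand of the gene and inside that peak. All of these promoters were called for Rad21 in DP cells and in neither pre-B nor DN cells. Capitals mark matches, on either strand, to the letters TGTGGTT (Runx), AGGAAGT (Ets) or CAGCTG (E-box), which were searched as short motifs of lymphoid factors. The Lck, Cd5 and Cd28 windows held such a match, and the Thy1 and Themis windows, from the members with DP promoter peaks at percentiles 94.7 and 93.9, held none.
Lck (chr4:129235636-129235835, minus strand): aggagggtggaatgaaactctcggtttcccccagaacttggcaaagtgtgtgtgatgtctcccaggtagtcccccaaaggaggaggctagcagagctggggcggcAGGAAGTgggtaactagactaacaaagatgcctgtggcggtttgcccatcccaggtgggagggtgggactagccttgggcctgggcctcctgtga
Cd5 (chr19:10813465-10813664, minus strand): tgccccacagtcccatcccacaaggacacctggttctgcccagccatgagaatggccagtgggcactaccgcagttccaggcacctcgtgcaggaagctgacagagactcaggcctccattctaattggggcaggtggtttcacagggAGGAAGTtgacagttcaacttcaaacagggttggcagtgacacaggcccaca
Cd28 (chr1:60803002-60803201, plus strand): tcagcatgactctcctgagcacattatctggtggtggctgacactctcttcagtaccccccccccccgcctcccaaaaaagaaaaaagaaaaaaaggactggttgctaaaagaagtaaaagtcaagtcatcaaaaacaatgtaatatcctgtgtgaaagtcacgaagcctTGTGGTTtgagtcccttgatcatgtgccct
Thy1 (chr9:43851267-43851466, plus strand): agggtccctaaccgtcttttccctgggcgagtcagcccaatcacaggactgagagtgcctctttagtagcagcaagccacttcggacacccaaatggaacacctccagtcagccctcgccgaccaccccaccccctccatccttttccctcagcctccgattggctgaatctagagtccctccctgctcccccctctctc
Themis (chr10:28387966-28388165, plus strand): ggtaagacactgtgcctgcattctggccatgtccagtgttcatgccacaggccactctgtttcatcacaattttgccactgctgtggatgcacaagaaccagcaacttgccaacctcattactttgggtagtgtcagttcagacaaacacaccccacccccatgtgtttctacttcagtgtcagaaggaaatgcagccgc

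Rad21 was called at the promoter, within 1 kb of an annotated start, of nearly all of the TCR genes in DP thymocytes and of few of them in the other cell types. In DP cells 26 of the 30 genes had a promoter peak (86.7%, interval 69.3 to 96.2), against 31.5% of all protein-coding genes. In pre-B cells 7 genes had one (23.3%, interval 9.93 to 42.3, against 18.9% of all genes), and in DN cells 1 gene had one (3.33%, interval 0.0844 to 17.2, against 3.72%). The DP share of the 30 genes thus lay far above the share of all genes, while the pre-B and DN shares lay near theirs. On lists of equal length the DP list still held promoter peaks of 11 genes (36.7%, interval 19.9 to 56.1, against 6.90% of all genes), the pre-B list of none (0 of 30, interval up to 11.6%, against 4.15%) and the DN list of 1. When only the DP list was shortened, to the length of the pre-B list, all 26 genes remained called. Genes with more annotated starts had more promoter windows, and the comparison with all genes was not matched for this. With the outermost start alone 25 of the 30 genes were called in DP cells, a setting not counted for all genes.

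**Figure D1:**
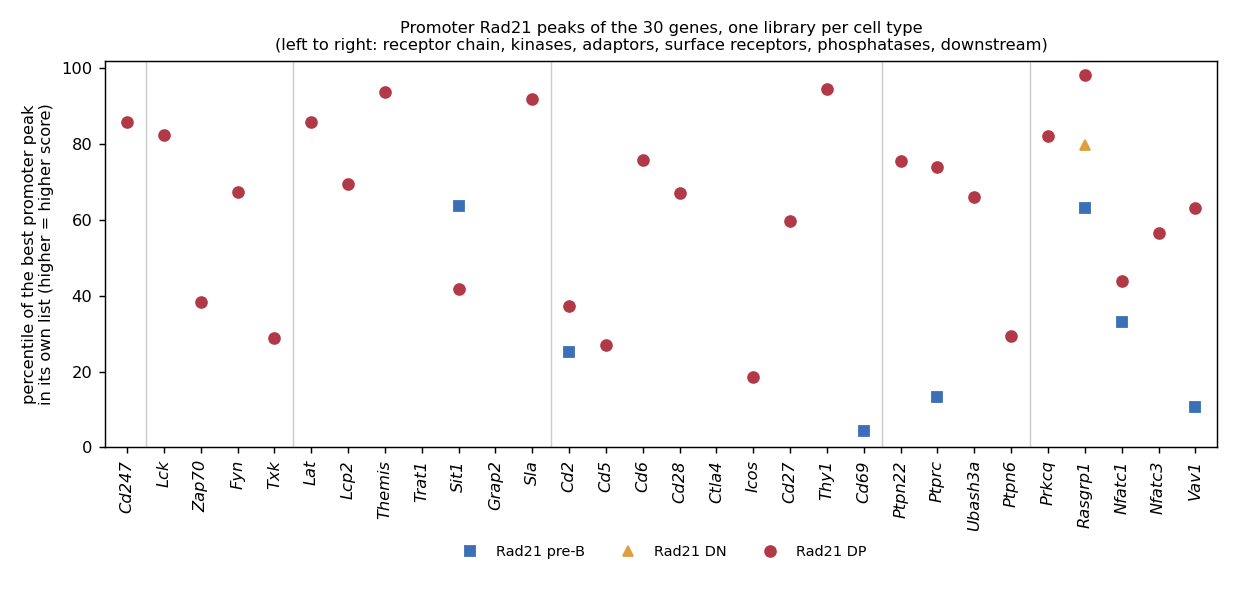
Percentile, within its own list, of the best Rad21 promoter peak of each of the 30 genes (y axis, percent) in pre-B cells (squares), DN thymocytes (triangle) and DP thymocytes (circles), 1 library each, with genes grouped by role along the x axis. A gene without a symbol for a library had no promoter peak called there: 26 genes carry a circle, 7 a square and 1, Rasgrp1, a triangle.

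Of the genes, 20 had a promoter peak in DP and not in pre-B cells (66.7%, interval 47.2 to 82.7, against 16.7% of all genes), 6 had one in both (Cd2, Ptprc, Sit1, Rasgrp1, Nfatc1 and Vav1), and 1, Cd69, had one in pre-B and not in DP cells (3.33%, against 4.11% of all genes). Ctla4, Trat1 and Grap2 had no promoter peak in any of the 3 Rad21 lists. The best DP promoter peaks ran from percentile 18.5 at Icos to 98.2 at Rasgrp1, with a median of 67.3, beside a median of 47.9 over the 7037 genes with a DP promoter peak. The best pre-B promoter peaks of the 7 genes had a median percentile of 25.2, from 4.45 at Cd69 to 63.6 at Sit1, beside 38.8 over all genes with a pre-B promoter peak. The median was thus above that of all genes in DP cells and below it in pre-B cells, with members on both sides of it in each list.

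CTCF promoter peaks of these genes were near or below the share of all genes. In pre-B cells 3 of the 30 genes had a CTCF promoter peak (10%, interval 2.11 to 26.5, against 24.6% of all genes), namely Sit1, Rasgrp1 and Nfatc1, with the share of all genes inside the interval and 9 genes called when promoters were widened to 2500 bp either side. In IL7-cultured pro-B cells 11 had one (36.7%, against 36.4%). With that list cut to the 42250 peaks of the pre-B CTCF list, 3 had one (10%, interval 2.11 to 26.5, against 21.5%). A DP Rad21 promoter peak without a CTCF pre-B promoter peak was found at 23 genes (76.7%, against 15.0% of all genes), and without a CTCF promoter peak in either list at 15 genes (50%, against 8.94%). Both CTCF lists come from B-lineage cells.

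The receptor chain and kinase genes all had Rad21 at a promoter in DP cells. At Cd247 (chromosome 1, 167718812 to 167807407, plus strand), which encodes the zeta chain, the DP promoter peak ranked 5148 (percentile 86.0), with no promoter peak in the pre-B or DN list. At Lck (chromosome 4, 129225588 to 129250885, minus strand), which encodes the Src-family kinase bound to CD4 and CD8, 3 DP peaks lay at promoters. The strongest, chr4:129234975-129236406, covered the start at 129235635 and ranked 6423 (percentile 82.5), and a second one beside it stood at percentile 61.6. The third, chr4:129250552-129251283, covered the outermost start and was weak, at percentile 17.2. None of the 3 was called in pre-B or DN cells, and the peak at the inner start had the highest score of the 3.

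The other kinase genes showed the same libraries at lower ranks. Fyn, the second Src-family kinase of T cells, had its DP promoter peak at percentile 67.4, Zap70, the kinase that docks on the phosphorylated zeta chain, at 38.3, and Txk, a kinase of the Tec family, at 28.9. None of these 3 genes had a promoter peak in the pre-B or DN list. On lists of equal length Lck was the only kinase gene of the 4 still called.

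Of the 7 adaptor and scaffold genes, 5 had a DP promoter peak. Themis (chromosome 10, 28388166 to 28603624, plus strand), needed for positive selection of thymocytes, ranked 2246 (percentile 93.9), and Lat, the membrane adaptor phosphorylated by ZAP-70, ranked 5188 (percentile 85.9). Lcp2, which encodes SLP-76, had 2 adjoining DP promoter peaks with the better one at percentile 69.5. Sla, which encodes the adaptor SLAP that lowers receptor levels, had DP promoter peaks at 3 separate starts, at percentiles 92.0, 88.3 and 69.3. None of these 4 genes had a promoter peak in pre-B or DN cells. Sit1, a transmembrane adaptor gene, was the exception. Its pre-B promoter peak stood at percentile 63.6 and its DP promoter peak at 41.7, and these 2 peaks did not overlap. The DP peak that did overlap the pre-B peak lay just outside the promoter, at percentile 21.7. Trat1 and Grap2, which encodes the SLP-76 partner Gads, had no promoter peak for Rad21 in any list.

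Among the 9 surface molecule genes, 7 had a DP promoter peak and 2 a pre-B promoter peak. Thy1 (chromosome 9, 43851467 to 43856662, plus strand), the classical thymocyte marker, had the highest, at rank 1943 (percentile 94.7). Cd6 followed at percentile 75.9, Cd28, the costimulatory receptor gene, at 67.2, and Cd27, a receptor gene of the TNF receptor family, at 59.7. Lower in the list were Cd2, an adhesion molecule gene, at 37.3, Cd5, a gene for an inhibitor of TCR signals, at 27.1, and Icos at 18.5. Of these 7 genes only Cd2 was also called in pre-B cells, at percentile 25.2. Cd69, a marker of early activation, was the reverse case, with a weak pre-B peak (rank 29129 of 30488, percentile 4.45) and no DP promoter peak, and Ctla4, the inhibitory counterpart of Cd28, had none in either.

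The phosphatase-family genes all had a DP promoter peak. Ptpn22, which encodes a phosphatase that acts on Lck and ZAP-70, stood at percentile 75.7 and Ptprc, which encodes CD45, at 74.1. Ubash3a was at percentile 66.1 and Ptpn6, which encodes SHP-1, at 29.4. Ptprc, a gene used in B and T cells alike, also had a pre-B promoter peak, at percentile 13.3, and the other 3 did not.

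All 5 downstream genes had a DP promoter peak and 3 a pre-B one. Rasgrp1 (chromosome 2, 117105729 to 117168737, minus strand), which encodes an activator of Ras that responds to diacylglycerol, had the highest promoter peak of the 30 genes in the DP list, at rank 672 (percentile 98.2), and was the only one with a promoter peak in the DN list, at rank 1974 (percentile 79.7). The pre-B peak at this promoter stood at percentile 63.2, and CTCF was called there in both B-lineage lists, at percentiles 94.5 and 92.8. Prkcq, which encodes protein kinase C theta, had a DP promoter peak at percentile 82.1 and none in pre-B or DN cells. Vav1, a guanine nucleotide exchange factor gene, was at percentile 63.1 in DP and 10.7 in pre-B cells, and Nfatc1 at 43.9 and 33.0. Nfatc3, which encodes another NFAT protein, had a DP promoter peak alone, at percentile 56.5.

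Other pathway genes were compared as lists. Of 40 further genes of the TCR pathway, 26 had a Rad21 promoter peak in DP cells (65%, interval 48.3 to 79.4), 5 in pre-B cells and 2 in DN cells. High in the DP list among them were Cd96 (percentile 94.9), Pag1 (percentile 89.7) and Csk (percentile 82.7), and of these 3 only Csk was also called in pre-B cells. Of 29 genes of B-cell receptor signalling and the B-cell surface, 11 had a promoter peak in DP cells (37.9%, interval 20.7 to 57.7), 17 in pre-B cells (58.6%, interval 38.9 to 76.5) and 2 in DN cells. In the lists as deposited DP cells thus had the larger count at the TCR genes and pre-B cells at the B-cell genes, where the 2 intervals overlapped. A promoter peak in pre-B and not in DP cells was found at 8 of the 29 B-cell genes (27.6%) and at 1 of the 30 TCR genes. In the lists of equal length, DP promoter peaks were found at 11 of the 30, 8 of the 40 and 4 of the 29 genes, and pre-B promoter peaks at 0, 0 and 2 of them. The larger pre-B count at the B-cell genes was therefore lost on lists of equal length, where 0 of the 29 B-cell genes and 0 of the 30 TCR genes had a promoter peak in pre-B and not in DP cells.

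**Figure D2:**
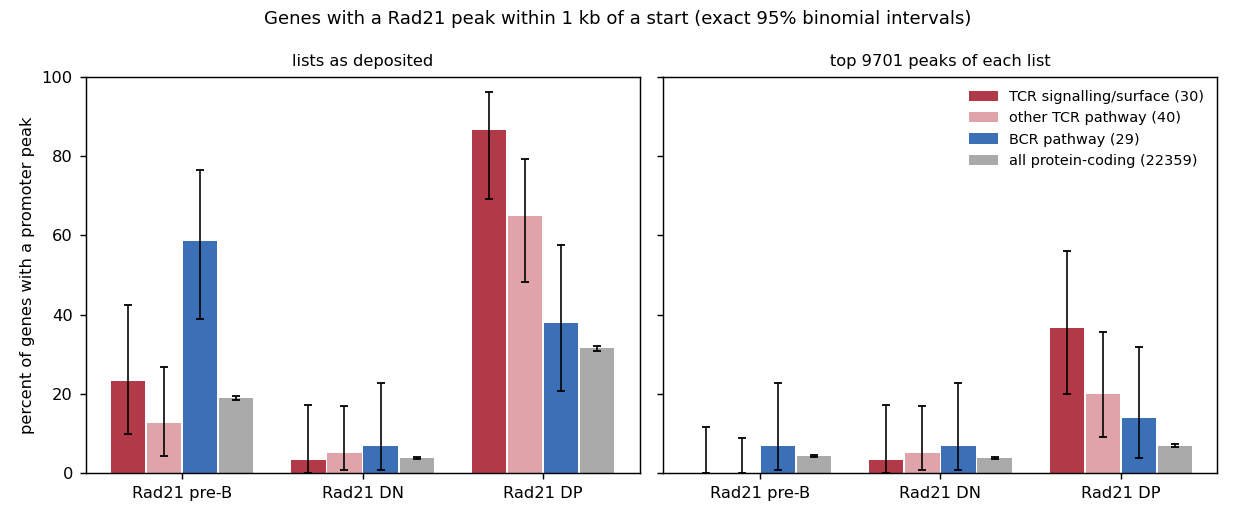
Percent of genes with a Rad21 promoter peak (y axis) in each Rad21 library (x axis) for the 30 genes, 40 other TCR pathway genes, 29 B-cell genes and all 22359 protein-coding genes, from the lists as deposited (left) and from the top 9701 peaks of each (right), with bars from 0 and exact 95% binomial intervals that cover counting error only. In the DP library the 30 genes reach 86.7% on the left and 36.7% on the right, above the 31.5% and 6.90% of all genes.

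Rad21 peaks within the genes were also more numerous in DP cells than in the other cell types. The 30 gene bodies, promoter peaks included, were overlapped by 126 DP peaks, 40 pre-B peaks and 9 DN peaks, and 28 genes had a gene body peak in DP cells (93.3%, against 44.8% of all genes), 19 in pre-B cells (63.3%, against 39.7%) and 7 in DN cells (23.3%, against 15.8%). Without the peaks at a promoter, 89 DP, 32 pre-B and 8 DN peaks were left. These lay in 21 genes in DP cells (70%, interval 50.6 to 85.3, against 29.7% of all genes), 16 in pre-B cells (53.3%, interval 34.3 to 71.7, against 30.8%) and 6 in DN cells (20%, interval 7.71 to 38.6, against 13.9%). The DP and pre-B intervals overlapped. The 30 genes were longer than most, with a median length of 40473 bp against 15427 bp for all genes, so that the comparison with all genes is not matched for length. Between cell types, where length is the same, the DP gene body count, promoter peaks included, exceeded the pre-B count at 25 genes, equalled it at 4 and was below it at 1. The share of all genes with the higher DP count is not given here. The mean gene body count was 4.20 in DP and 1.33 in pre-B cells at the 30 genes. Over all genes the means were 1.01 and 0.768, so that DP was the higher there too. With the flanks included, the counts per gene had a median of 10.5 in DP cells (4 to 18), 6 in pre-B cells (0 to 11) and 2 in DN cells (0 to 5), beside medians of 3, 3 and 1 over all genes. These counts come from lists of unequal length. On lists of equal length the gene bodies were overlapped by 30 DP, 11 pre-B and 9 DN peaks. Without the peaks at a promoter 18, 11 and 8 were left, in 13, 9 and 6 genes. The window counts summed over the 30 genes were 105, 63 and 67, in place of 325, 179 and 67. The DP sum thus stayed the highest, with the DP window count above the pre-B count at 22 genes and above the DN count at 21. The pre-B count was no longer above the DN count at most genes but at 6, and was equal to it at 15 and below it at 9. Gene body and window counts on lists of equal length are not given here for all genes. How far these orderings hold for genes in general is therefore unknown.

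**Figure D3:**
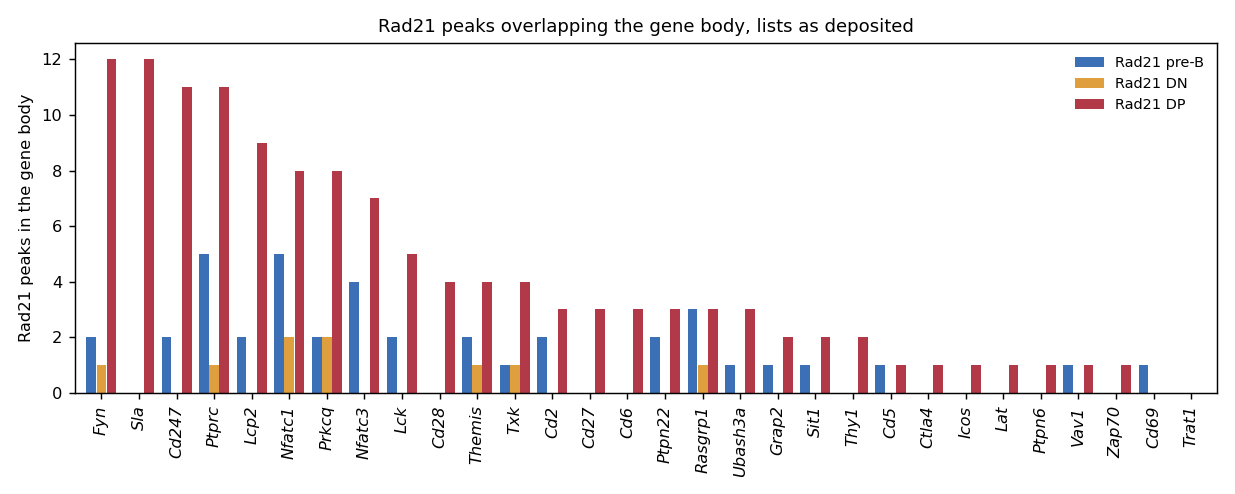
Number of Rad21 peaks overlapping the gene body (y axis) of each of the 30 genes (x axis, ordered by the DP count) in pre-B cells, DN and DP thymocytes, 1 library each, from the lists as deposited. Fyn and Sla have 12 DP peaks each, Cd247 and Ptprc 11, and Trat1 and Cd69 none.

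The genes with the most peaks differed in how much of this was specific to DP cells. Sla had 12 DP peaks in its body, at percentiles from 7.41 to 92.0, and none in pre-B or DN cells. Cd247 had 11, of which 9 were called in DP cells alone and 2, at 65163 bp and 69803 bp from the start, in pre-B cells as well, at percentiles 65.4 and 70.3 in the pre-B list and 80.1 and 82.8 in the DP list. Both shared sites overlapped CTCF peaks in the 2 B-lineage lists, and of the 9 others 2 overlapped a CTCF peak in pre-B cells, at percentiles 10.5 and 22.5. Fyn had 12 DP peaks, of which only 1, in an intron at chr10:39239622-39240798, was also called in pre-B and DN cells, and this was again a CTCF site (percentile 71.0). Lcp2 had 9 DP peaks, with 2 shared with pre-B cells, and Ptprc had 11, with 5 shared. At these long genes the DP-only peaks and the shared peaks lay side by side.

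**Figure D4:**
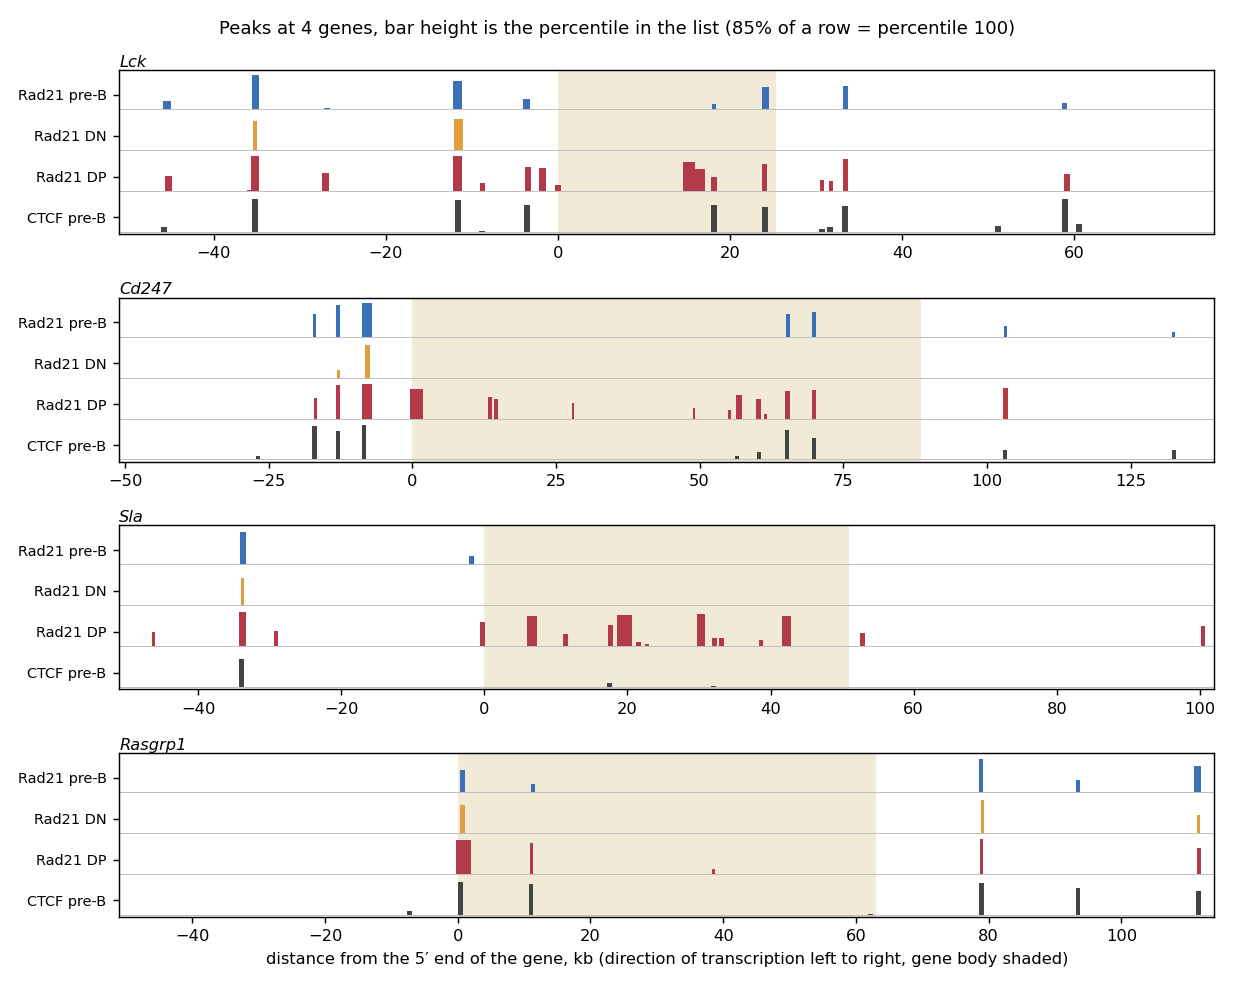
Peaks along Lck, Cd247, Sla and Rasgrp1 and the 50 kb on either side (x axis, kb from the 5′ end of the gene in the direction of transcription, gene body shaded), with 1 row for each of 3 Rad21 libraries and for CTCF in pre-B cells, and with bar height giving the percentile within the list. Inside Sla the DP row alone holds Rad21 peaks, and inside Cd247 the 2 peaks shared by pre-B and DP stand over CTCF peaks at about 65 and 70 kb.

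Peaks of the 3 Rad21 libraries were merged into sites where they overlapped by 1 bp or more, which gave 357 sites at the 30 genes and 46478 in the genome. The windows of Cd5 and Cd6 share 7 of these sites and those of Ctla4 and Icos share 3, and each site was counted once. At the 30 genes 185 sites were called in a thymocyte library and not in pre-B cells (51.8%, interval 46.5 to 57.1, against 34.8% of all sites), of which 181 were called in DP cells alone and 4 in DN and DP cells. Sites called in pre-B cells alone numbered 43 (12.0%, interval 8.86 to 15.9, against 20.6%), and sites called in all 3 libraries numbered 60 (16.8%, interval 13.1 to 21.1, against 18.7%). No site was called in DN cells alone. On lists of equal length, 50 of 110 sites were called in thymocytes and not pre-B cells (45.5%, interval 35.9 to 55.2, against 36.5% of all sites, which lies inside the interval), 6 in pre-B cells alone (5.45%, interval 2.03 to 11.5, against 14.8%) and 46 in all 3 (41.8%, interval 32.5 to 51.6, against 33.2%). In the windows of the B-cell genes, 22.3% of 247 sites were called in DP cells alone and 28.7% in pre-B cells alone, beside 33.6% and 20.6% of all sites. In the windows of the 40 other TCR pathway genes, 45.0% of 382 sites were called in thymocytes and not in pre-B cells. On lists of equal length this share was 47.4% of 116 sites, near the 45.5% of the 30 genes.

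The DP-only share depended on where in the locus a site lay. It was 82.1% of the 39 promoter sites (32 sites, beside 51.4% of all promoter sites), 66.0% of the 94 other sites inside the genes (62 sites, beside 30.4% of all such sites) and 38.8% of the 224 flanking sites (87 sites, beside 28.4% of all sites outside genes). Sites called in all 3 libraries made up 2.56% of the promoter sites (1 site, beside 8.90% of all promoter sites), 8.51% of the intragenic sites (8 sites, beside 19.3%) and 22.8% of the flanking sites (51 sites, beside 22.5% of all sites outside genes). The share rose from promoters to flanks at the 30 genes and in the genome alike. Of the flanking sites, 34 lay at the promoter of a neighbouring gene, and 11 of these were called in DP cells alone.

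**Figure D5:**
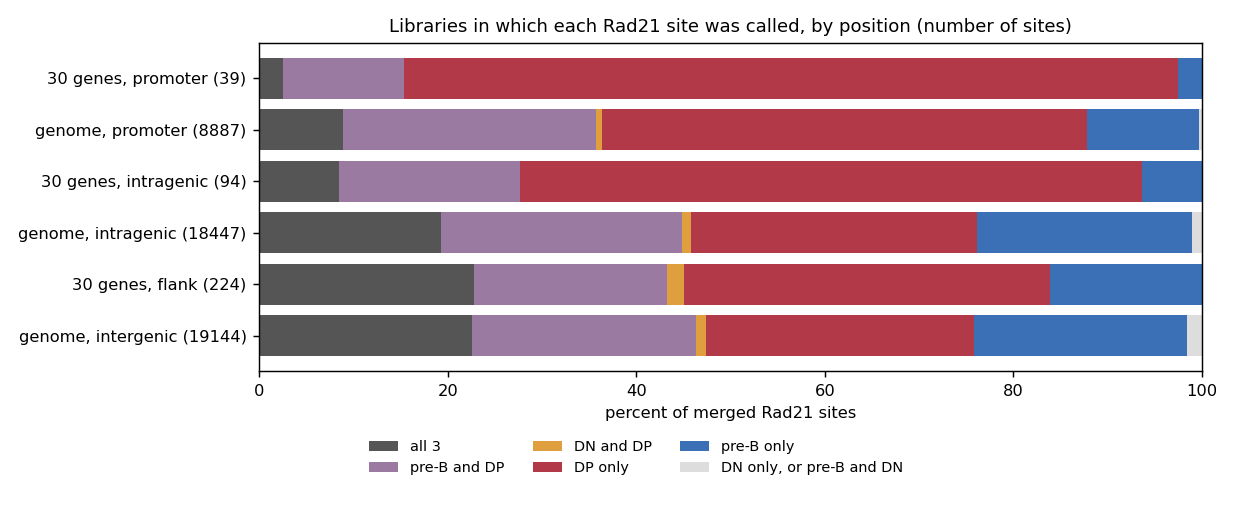
Composition of the merged Rad21 sites (x axis, percent of sites) by the libraries in which they were called, for promoter, intragenic and flanking sites of the 30 genes and for promoter, intragenic and intergenic sites of the genome, with the number of sites in brackets. The DP-only part of the bar is 82.1%, 66.0% and 38.8% at the 30 genes and 51.4%, 30.4% and 28.4% in the genome. Flanking sites can lie in or at the promoter of a neighbouring gene, and intergenic sites cannot.

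CTCF peaks overlapped nearly all of the sites that pre-B cells and thymocytes shared and a minority of those in thymocytes and not pre-B cells. A CTCF peak in either B-lineage list overlapped 123 of the 129 sites shared by pre-B cells and thymocytes (95.3%, beside 96.0% of all such sites), 29 of the 43 sites called in pre-B cells alone (67.4%, beside 85.4%) and 48 of the 185 sites called in thymocytes and not in pre-B cells (25.9%, beside 35.9%). Counted by peaks, 173 of the 316 DP peaks at these genes overlapped a CTCF peak (54.7%, interval 49.1 to 60.3, beside 69.2% of the DP list), 154 of the 174 pre-B peaks (88.5%, beside 92.4%) and 64 of the 65 DN peaks (98.5%, beside 98.4%). Thymocyte CTCF peaks that B-lineage cells lack would not be seen in this count. The shared sites also ranked higher. In the DP list the median percentile was 92.4 at the 60 sites called in all 3 libraries, 59.0 at the 69 sites shared with pre-B cells alone and 41.9 at the 181 DP-only sites, beside 84.7, 50.7 and 31.5 over all sites of each kind.

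The sites that ranked highest at these loci in each Rad21 list were flanking CTCF sites found in all 3 cell types. By rank in the DP list, the best was 15583 bp downstream of Rasgrp1, where Rad21 ranked 12 in DP, 495 in DN and 1230 in pre-B cells. Next came a site 6928 bp upstream of Cd247, with ranks of 79, 576 and 663, and a site 6968 bp upstream of Cd2, with ranks of 92, 578 and 479. The site 33269 bp upstream of Sla, a gene whose body held Rad21 in DP cells alone, ranked 119 in DP, 2000 in DN and 2004 in pre-B cells. Lck had 2 such sites, 11063 and 34718 bp upstream, ranked 349 and 347 in DP cells, and the second holds the sequence printed above with 1 mismatch to the consensus. In the DN list the best sites were 5275 bp downstream of Vav1 (rank 64) and 20269 bp upstream of Ptpn6 (rank 67), and in the pre-B list the best was 39003 bp downstream of Sit1 (rank 151, with ranks of 838 in DP and 1605 in DN cells). All of these sites overlapped a CTCF peak in pre-B cells.

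Rad21 sites in thymocytes and not in pre-B cells were also found in the flanks. Thy1, a gene of 5196 bp, had 8 DP-only sites in the 50 kb upstream, the best of them 29940 bp upstream at rank 5934 (percentile 83.8), and a further DP peak inside the gene at rank 4307 (percentile 88.3). Cd27 had a DP-only site 28136 bp upstream at rank 5922 (percentile 83.9). Trat1, which had no Rad21 peak within the gene, had a site 37190 bp upstream that ranked 2801 in DP and 7860 in DN cells and was not called in pre-B cells. The other 3 sites called in DN and DP cells and not in pre-B cells were 10351 bp upstream of Prkcq, 49890 bp upstream of Grap2 and 6598 bp upstream of Ptpn6.

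Few sites were particular to the pre-B list. The strongest of the 43 was in an intron of Ubash3a, chr17:31372627-31373550, at rank 9005 (percentile 70.3), over a CTCF peak whose sequence, printed above, matches the consensus with 0 mismatches. The 43 sites had a median percentile of 25.0, and the others inside genes were in Cd2, Cd5, Fyn, Nfatc1 and Nfatc3, beside the promoter of Cd69. The window of Cd69 was one of 4 in which the pre-B count exceeded the DP count, with 11 peaks against 9. The others were those of Zap70, Rasgrp1 and Ubash3a. On lists of equal length only Ubash3a still had more pre-B than DP peaks (3 against 2), while Cd69 had 5 against 6, Rasgrp1 2 against 4 and Zap70 2 of each.

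CTCF itself was called at all 30 loci. Their windows contained 196 CTCF peaks of the pre-B list and 284 of the cultured pro-B list, and 182 of the pre-B peaks overlapped one of the latter (92.9%, beside 96.0% of the list). Rad21 of the same pre-B cells, which shares its input library with the CTCF sample, overlapped 145 of the 196 CTCF peaks (74.0%, interval 67.2 to 80.0, beside 63.5% of the list), and Rad21 of DP cells also overlapped 145 (74.0%, beside 52.0%). Rad21 of DN cells overlapped 64 (32.7%, beside 22.0%). A match of at most 2 mismatches to the 12-base consensus was found in 93 of the 196 peaks (47.4%, interval 40.3 to 54.7, beside 48.3% of the list), and in 12.2% of the sequences 2000 bp away. The match was found in 55.2% of the peaks with Rad21 in pre-B cells and 25.5% of those without, beside 53.6% and 39.1% in the whole list.

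The nearest consensus matches on either side of each gene were also compared by strand, taking the nearest match at any distance. They pointed towards each other across 6 of the 30 genes (20%, interval 7.71 to 38.6, beside 25.8% of all genes), namely Cd5, Cd28, Cd247, Txk, Sla and Cd69. Both matches lay within 50 kb of the gene only at Cd247 and Cd69, and at Cd28 they were 558279 and 95360 bp away. They pointed away from each other at 8 genes and the same way at 16. The convergent share of all genes lay inside this interval.

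The letters of the short motifs were counted in 300 bases around the midpoint of each site. At the 137 thymocyte sites without pre-B Rad21 and without CTCF, the Runx letters were found in 12.4% (beside 12.0% of the 10379 such sites in the genome), the Ets letters in 20.4% (beside 17.0%) and the E-box letters in 29.9% (beside 26.8%). These shares lay near those of the genome. The CTCF consensus was found in 5.11% of them (beside 5.84%). In the 300 bases around the midpoint of the best DP promoter peak, 4 of the 26 genes held the Ets letters (15.4%, interval 4.36 to 34.9). The E-box letters were held by 3 (11.5%, interval 2.45 to 30.2) and the Runx letters by 1 (3.85%, interval 0.0973 to 19.6). The 300-base windows at the outermost starts of all genes held them in 9.04%, 15.1% and 5.13%. Those windows are placed by the start and include genes without a DP peak, so they are not matched. In the 200 bases upstream of the start, which could be read whole, inside the peak and free of exons at 15 of the 26 genes, 6 held the Ets letters (40%, interval 16.3 to 67.7), 2 the Runx letters and 1 the E-box letters. By the same rule, 2556 of all protein-coding genes with a DP promoter peak gave such a window, and 7.43% of these held the Ets letters, 2.90% the Runx letters and 8.61% the E-box letters. Genes on chromosome 18 were left out of both counts. Lck, Cd5, Txk, Icos and Nfatc3 were among the 6 genes with the Ets letters. The upstream windows were added after the first counts had been seen, and a match of letters is a description of the sequence and not a measured binding site.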

How the data were processed

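ChIP-seq peaks of 5 libraries were analysed, 1 for each antibody and cell type, each called by the authors against the input of the same cells. Per the labels and methods, the authors used Bowtie to align reads to mm9, with reads that fit a few places retained, and called peaks with MACS 1.4.2. The labels and the methods give different Bowtie versions. The deposited files hold the position and the score of each peak, and the read depth is unknown. The genes were protein-coding genes of GENCODE vM1 on NCBIM37. A promoter was 1 kb either side of an annotated start, and overlap was 1 bp or more. Rad21 peaks were merged across the 3 libraries into sites. Shares carry exact Clopper-Pearson intervals at 95%, and with 1 library a group there was no test. The CTCF consensus of 12 bases, read from the study's motif library, was searched on both strands with at most 2 mismatches, and matches on the minus strand were read as pointing to higher coordinates.

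The 30 genes and the comparison lists were chosen with earlier results of these data known. Of 30 B-cell genes listed, 29 were matched in the annotation. All 30 TCR genes are accounted for by role. Single peaks were named at promoters, where the libraries differed inside a gene, and where a gene's site ranked highest, and up to 4 genes of each other list were named by their DP promoter rank. Some items that these rules would name are not reported here. The alternatives were scores of at least 100, lists of equal length, windows of 20 kb, promoters of 2500 bp either side, peak midpoints, 50% overlap and 1 mismatch. The DP list at the pre-B length, the outermost start alone and the 200-base upstream windows were added after the data had been seen. The merging, promoter calls and motif search were tested on simulated peaks and sequences. Python 3.11.15, numpy 2.4.6, scipy 1.17.1 and matplotlib 3.10.9 were used.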

Additional observations from a re-analysis of the deposited data

How the results depend on the processing

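No paired analysis was possible because each group has 1 library. Of 65 alternatives to 14 main values, 45 stayed within the main interval or within 1.5 times the main count and 20 did not. With windows of 20 kb the peak counts fell to 124 for CTCF in pre-B cells, 173 for CTCF in pro-B cells, 110 for Rad21 in pre-B cells and 38 for Rad21 in DN cells, and sites called in pre-B cells alone to 8.80%, a smaller region by construction. On lists of equal length the CTCF list of pro-B cells, cut to the 42250 peaks of the pre-B list, kept 172 peaks. The Rad21 lists, cut to 9701 peaks, kept 61 in pre-B and 103 in DP cells. Sites in thymocytes and not pre-B cells came to 45.5%, in pre-B cells alone to 5.45% and in all 3 libraries to 41.8%. Members with a promoter peak came to 0 in pre-B and 11 in DP cells, all with fewer peaks by construction. For CTCF peaks with Rad21 the cut was another one, with the pre-B CTCF list limited to the 30488 peaks of the pre-B Rad21 list. The share was then 92.6% (125 of 135 peaks). With scores of at least 100, sites in all 3 libraries were 21.5% and members with a pre-B promoter peak were 3. With promoters of 2500 bp either side, 11 members had a Rad21 peak in pre-B cells, 3 in DN cells and 9 a CTCF peak in pre-B cells. With 1 mismatch the consensus share was 11.7%. Of the 26 members with a DP promoter peak, 22 kept one at a score of at least 100, 11 on lists of equal length, 25 at the outermost start alone and 26 under each of the other 3 alternatives. In each of these settings more members had a promoter peak in DP than in pre-B or DN cells. Without replicates or read depths, a site not called may be bound below the limit of its list, and the DN list, the shortest, limits what can be said of DN cells.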
